A study of Mus musculus with 2 samples.

Results

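The genes described here are 30 transcripts that are widely used as markers of the S phase of the cell cycle, when the genome is copied. They were taken by name, not by a measured value, and all 30 were rows of both deposited count tables, out of 15944 genes found in both tables (16236 in the E11.5 table and 17775 in the E13.5 table). The tables hold unique molecular identifier (UMI) counts per cell from the mandibular prominence of wild-type CD1 mouse embryos, the facial bud that forms the lower jaw and tongue. The E11.5 library came from tissue with the developing tongue bud, treated with 3 mg/ml of a bacterial protease, and the E13.5 library from tissue with developing tongue and skeletal elements, treated with 5 mg/ml. Both stages were untreated wild-type tissue, each stage is 1 library, and no source used here gives the number of embryos pooled.

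Stage therefore cannot be told apart from library or from protease concentration, and no test between stages was possible. The E11.5 library held 7099 cells and the E13.5 library 6318, with median depths of 6231 and 9280 UMIs per cell, and 71 cell barcodes were found in both. Xist, the X-inactivation transcript, stood at 0.0536 CPM (UMIs of the gene per 1000000 UMIs) in E11.5 mesenchyme and at 499 CPM in E13.5 mesenchyme, so the sex of the embryos cannot be told apart from stage either. The deposited tables give each cell a cluster, an S score and a G2M score, and a phase call of G1, S or G2M. The authors' lineage names were checked against marker genes among the top 10 genes of each cluster. Mesenchymal clusters 0, 1, 2, 3, 4, 7 and 16 at E11.5 had no listed marker of any class there. The same held for clusters 3, 4, 6, 11, 12 and 21 at E13.5. The class of these clusters thus rests on the authors' names. A cluster of 26 cells at E11.5 that leads with glial genes was kept out of the mesenchyme, and cluster 8 at E13.5, with a median of 935.5 UMIs per cell, was left unnamed. Some clusters kept in the mesenchyme lead with other genes (skeletal genes in clusters 5 and 10 at E11.5 and in cluster 5 at E13.5, and the neuronal gene Tubb3 among the top 10 genes of cluster 8 at E11.5). Muscle cluster 1 at E13.5 had none of the muscle markers among its top 10 genes, which included Msc, Pitx3 and Lbx1. Haemoglobin transcripts made up 1.24% of mesenchymal UMIs at E11.5 and 0.218% at E13.5.

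A cell that is going to divide first loads the Mcm helicase onto its replication origins with the help of Cdc6, an act called licensing, and then fires those origins once. Cdc45 and the GINS complex, of which Gins2 is a subunit, switch the loaded helicase on, the sliding clamp Pcna holds the polymerases on the template, and ribonucleotide reductase (Rrm1 and Rrm2) and thymidylate synthase (Tyms) supply the deoxynucleotides. Many of these genes are targets of E2F transcription factors, which the retinoblastoma family of pocket proteins holds in check until late G1, and in growing facial mesenchyme they mark the cells that expand the jaw primordium.

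Promoter sequence is shown for 6 members that span the extremes of the set: the largest stage differences (Rrm2, Pcna), the smallest (Pola1), 2 helicase subunits and the licensing factor Cdc6. Each line gives the 250 bases before the annotated start, 5′ to 3′ on the gene's strand, from RefSeq on build GRCm38.p6. Capitals mark matches, on either strand, to 4 spellings of the core E2F site (TTTCCCGC, TTTGGCGC, TTTCGCGC or TTTGCCGC) or to the CCAAT box (CCAAT or, on the opposite strand, ATTGG); in Mcm5 and in Mcm6 a pair of E2F matches overlap.
Cdc6 promoter, chr11:98907901-98908150, plus strand: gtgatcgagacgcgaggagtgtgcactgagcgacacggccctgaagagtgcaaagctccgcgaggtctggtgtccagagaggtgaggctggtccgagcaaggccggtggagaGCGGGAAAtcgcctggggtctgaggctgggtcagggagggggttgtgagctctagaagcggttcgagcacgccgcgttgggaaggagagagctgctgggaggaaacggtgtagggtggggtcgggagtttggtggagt
Mcm5 promoter, chr8:75109259-75109508, plus strand: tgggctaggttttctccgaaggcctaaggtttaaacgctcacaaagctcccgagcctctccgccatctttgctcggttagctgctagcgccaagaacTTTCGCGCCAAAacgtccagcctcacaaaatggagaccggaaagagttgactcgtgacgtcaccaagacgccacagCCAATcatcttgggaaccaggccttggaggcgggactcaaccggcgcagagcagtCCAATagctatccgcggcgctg
Mcm6 promoter, chr1:128359706-128359955, minus strand: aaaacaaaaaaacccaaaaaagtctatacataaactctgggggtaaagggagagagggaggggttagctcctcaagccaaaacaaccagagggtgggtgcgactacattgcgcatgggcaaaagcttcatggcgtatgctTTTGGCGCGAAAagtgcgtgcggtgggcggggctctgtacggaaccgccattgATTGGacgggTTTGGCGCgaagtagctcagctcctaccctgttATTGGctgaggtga
Pola1 promoter, chrX:93632156-93632405, minus strand: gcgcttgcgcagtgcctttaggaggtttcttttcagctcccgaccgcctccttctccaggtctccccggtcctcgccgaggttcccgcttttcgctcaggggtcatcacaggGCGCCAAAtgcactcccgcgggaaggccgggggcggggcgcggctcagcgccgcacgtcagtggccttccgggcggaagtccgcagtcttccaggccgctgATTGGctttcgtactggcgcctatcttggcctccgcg
Rrm2 promoter, chr12:24708004-24708253, plus strand: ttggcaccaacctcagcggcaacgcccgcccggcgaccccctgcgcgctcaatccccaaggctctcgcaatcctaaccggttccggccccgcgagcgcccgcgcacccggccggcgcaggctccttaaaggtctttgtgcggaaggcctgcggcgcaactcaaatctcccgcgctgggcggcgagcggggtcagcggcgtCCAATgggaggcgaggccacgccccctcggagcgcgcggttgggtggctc
Pcna promoter, chr2:132253181-132253430, minus strand: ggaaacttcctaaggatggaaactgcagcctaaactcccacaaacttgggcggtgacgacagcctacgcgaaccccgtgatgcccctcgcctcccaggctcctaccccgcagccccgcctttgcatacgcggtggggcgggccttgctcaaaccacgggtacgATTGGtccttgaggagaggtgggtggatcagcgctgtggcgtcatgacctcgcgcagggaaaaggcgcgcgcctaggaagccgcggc

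A promoter was found for 22 of the 30 members. The E2F letters were present in 8 of the 22 (36.4%), against 611 of all 32851 promoters of the same length (1.86%). The CCAAT letters were present in 15 of the 22 (68.2%), against 33.9% of all promoters, and both kinds in 5 of the 22 (22.7%), against 0.737%. Dtl, which directs a ubiquitin ligase to chromatin-bound Pcna, held both kinds, as did Mcm5, Mcm6, Pola1 and 1 of the 2 listed Uhrf1 promoters. Rrm2 and Pcna held a CCAAT match and none of the 4 E2F spellings in this window, which says only that these letters are absent there. The members without a matched promoter were Mcm4, Gins2, Rfc2, Gmnn, Ccne2, Atad2, Tipin and Usp1. The count tables hold no coordinates, and the files were made on mm10 per the submitters' processing notes.

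The summed level of the 30 genes differed widely between the deposited clusters. This level, the member UMIs per 1000000 UMIs of a cluster, ran at E11.5 from 4575 CPM in mesenchymal cluster 3, which leads with Nr2f1 and Dlx4, to 526 CPM in erythroid cluster 11, a ratio of 8.69 (95% interval 8.24 to 9.17, which like all intervals here covers counting error only). At E13.5 it ran from 5088 CPM in mesenchymal cluster 10 to 86.8 CPM in erythroid cluster 13, a ratio of 58.6 (52.4 to 65.8). Haemoglobin takes 65.7% of erythroid UMIs at E11.5 and 88.2% at E13.5. With haemoglobin, mitochondrial and ribosomal protein genes left out of the totals, the ratios were 2.55 and 7.51.

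**Figure D1:**
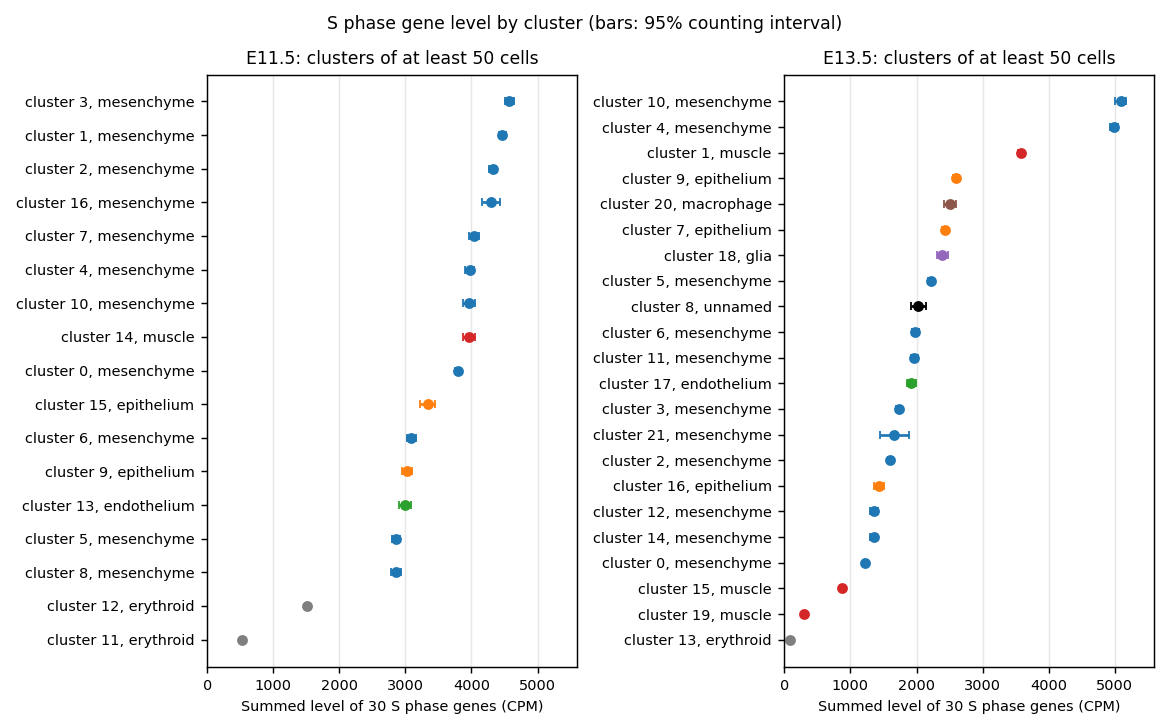
Summed level of the 30 S phase genes in each deposited cluster, in CPM with exact 95% intervals, for the E11.5 and E13.5 libraries, coloured by cell class. At E11.5 the 11 mesenchymal clusters lie between 2856 and 4575 CPM, and at E13.5 clusters 10 and 4 stand at 5088 and 4986 CPM above all others.

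At E11.5 the order from the top was mesenchymal clusters 3, 1, 2, 16, 7, 4 and 10, muscle cluster 14 (3966 CPM), mesenchymal cluster 0 and epithelial cluster 15 (3335 CPM). Mesenchymal cluster 6, epithelial cluster 9 (3026 CPM), endothelial cluster 13 (2991 CPM), mesenchymal clusters 5 and 8 and the erythroid clusters 12 and 11 followed. Neighbours in this order had overlapping intervals in runs: 3 with 1, 2 with 16, then 7, 4, 10 and 14 in a chain, and 6, 9, 13, 5 and 8 in a second chain. The 11 mesenchymal clusters differed by 1.60 times from highest to lowest, and the lowest of them were clusters 8 (2856 CPM) and 5 (2857 CPM). Cluster 8 leads with Hpgd and Dkk1, which are also among the top 10 genes of cluster 1 (4469 CPM). Cluster 5 leads with Barx1 and Sfrp2. The cartilage genes Sox9 and Col2a1 are among its top 10 genes and also among those of cluster 10 (3968 CPM).

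At E13.5 the spread was wider. Clusters 10 (5088 CPM) and 4 (4986 CPM), whose intervals overlap, stood above muscle cluster 1 (3574 CPM), and the remaining mesenchymal clusters lay between 1221 and 2224 CPM. Clusters 4 and 10 have cell cycle genes such as Mxd3, Cdkn2c and Hist1h2ap among their top 10 genes, and none of their 442 and 292 cells was called G1. Since cluster and level come from the same cells, their place at the top is a description. Below them and muscle cluster 1 came epithelial cluster 9 (2594 CPM), a macrophage-led cluster 20 (2506 CPM), epithelial cluster 7 (2424 CPM) and glial cluster 18 (2387 CPM). Mesenchymal cluster 5, the unnamed cluster 8, mesenchymal clusters 6 and 11 and endothelial cluster 17 (1923 CPM) followed. Mesenchymal clusters 3, 21 and 2, epithelial cluster 16 (1429 CPM), mesenchymal clusters 12, 14 and 0, muscle clusters 15 (871 CPM) and 19 (292 CPM) and the erythroid cluster ended the order. Overlapping neighbours were 9 with 20, 7 and 18, 8 with 6, 11 and 17, 3 with 21 and 2, and 16 with 12 and 14, each in a chain.

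Several cell classes held clusters far apart in level within 1 library. In E13.5 muscle, cluster 1, which leads with Msc and Pitx3, exceeded cluster 15, which leads with the differentiation factor Myog, by 4.10 times (3.93 to 4.29). It exceeded cluster 19, which leads with contractile genes such as Tnnc2 and Acta1, by 12.3 times (11.3 to 13.3). All 30 members were above 1 in both muscle ratios, from 1.95 (Uhrf1) to 14.8 (Ccne2) against cluster 15. In E13.5 epithelium, clusters 9 and 7 exceeded cluster 16, which leads with the suprabasal gene Krtdap, by 1.82 times (1.71 to 1.92) and 1.70 times (1.60 to 1.80), with Dtl as the 1 exception to a ratio above 1 in each (0.760 and 0.865). Erythroid cluster 12 at E11.5 exceeded cluster 11 by 2.88 times (2.72 to 3.05), in 30 of 30 members. The ratio between the 2 epithelial clusters of E11.5, 15 over 9, was 1.10 (1.06 to 1.15). No share of all genes above 1 is given for these pairs, so nothing is read from the counts of members. Haemoglobin was left in the totals of the erythroid pair, and contractile genes in those of the muscle pairs.

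The level was higher in clusters with more cells called S, and in mesenchyme also in those with more called G2M. Over the 11 mesenchymal clusters of each stage the Pearson correlation of summed CPM with the percentage of S-called cells was 0.980 for the E11.5 clusters and 0.975 for those of E13.5 (Spearman 0.918 and 0.973), and with the percentage of G2M-called cells it was 0.880 and 0.95 (0.736 and 0.764). Over all 17 and 22 clusters of at least 50 cells it was 0.881 and 0.933 for S and 0.290 and 0.726 for G2M. These are descriptions, since clusters of a stage share a library and no source used here gives the gene lists behind the deposited S and G2M scores. Those lists may hold most or all of these genes, so the correlation with S-called cells may be built in. Depth moved too (correlation of the level with median UMIs per cell 0.841 and 0.604 over mesenchymal clusters).

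**Figure D2:**
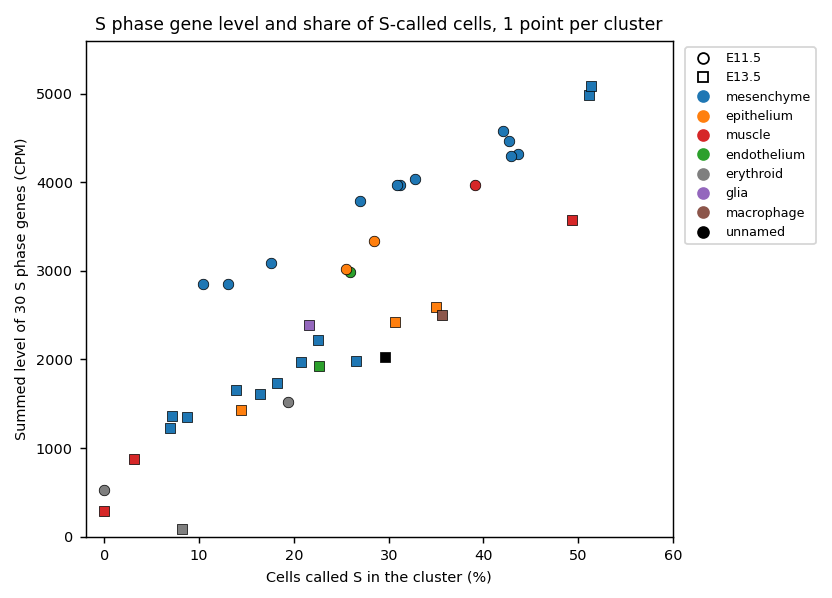
Summed level of the 30 S phase genes (CPM) against the percentage of cells called S, 1 point per deposited cluster, for each stage. Points rise together at both stages, and clusters 4 and 10 of E13.5 sit at the upper right with 51.1% and 51.4% of cells called S.

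Single members had ranges of their own. Among licensing and helicase genes, Mcm5, a helicase subunit, ran at E11.5 from 13.7 CPM (cluster 11) through a median of 113 CPM to 134 CPM (cluster 7), and at E13.5 from 3.35 CPM (cluster 13) through 75.2 CPM to 173 CPM (cluster 4). Mcm6, another subunit, ran from 21.2 through 138 to 157 CPM at E11.5 and from 3.63 through 86.6 to 156 CPM at E13.5. Over the non-erythroid clusters of E11.5 with at least 50 cells both helicase genes varied little, Mcm5 from 88.2 CPM and Mcm6 from 107 CPM upward. Gmnn encodes geminin, the inhibitor that prevents a second round of licensing, and ran from 29.8 through 169 to 247 CPM at E11.5 and from 5.30 through 61.2 to 248 CPM at E13.5.

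The clamp gene Pcna ran from 10.1 CPM (cluster 11) through 146 to 181 CPM (cluster 16) at E11.5 and from 2.23 CPM (cluster 13) through 50.5 to 142 CPM (cluster 4) at E13.5. Rrm2, the regulated subunit of ribonucleotide reductase, ran from 70.4 through 495 to 808 CPM (cluster 1) at E11.5 and from 7.81 through 87.4 to 524 CPM (cluster 4) at E13.5. Tyms, which makes thymidylate, ran from 56.0 through 261 to 394 CPM and from 8.09 through 125 to 512 CPM. For each of these 3 genes the median cluster was lower at E13.5, while the highest cluster was lower for Pcna and Rrm2 and higher for Tyms.

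Ung, the uracil-DNA glycosylase of base excision repair, was the member with its highest value in epithelium at both stages (cluster 9 at E11.5 with 78.0 CPM and cluster 9 at E13.5 with 76.4 CPM), with median clusters at 55.2 and 32.0 CPM and lowest values of 6.83 and 1.67 CPM. Slbp, the histone mRNA stem-loop binding protein, ran from 34.8 through 243 to 311 CPM at E11.5 and from 9.21 through 157 to 497 CPM at E13.5. Nasp, a histone chaperone, ran from 51.0 through 320 to 365 CPM (muscle cluster 14) and from 9.21 through 220 to 456 CPM. Ccne2, cyclin E2, which acts with Cdk2 at S phase entry, ran from 3.95 through 40.7 to 58.2 CPM at E11.5. At E13.5 it ran from 0 UMIs in erythroid cluster 13 through a median of 14 CPM to 79.1 CPM in cluster 10. Against the floor of 3 UMIs used here for a count of 0 (0.837 CPM in cluster 13), cluster 10 was at least 94.5-fold higher.

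Within mesenchyme the members differed in how strongly they varied between clusters. Over clusters of at least 100 cells the highest exceeded the lowest by a median of 1.86 times at E11.5, from 1.28 times (Nasp) to 4.99 times (Ccne2), and by a median of 5.11 times at E13.5, from 2.09 times (Mcm2) to 34.5 times (Ccne2). Other members with wide ranges at E13.5 were Cdc45, the helicase activator (33.4 times), Atad2, a bromodomain ATPase (25.8 times), and Rad51ap1 (23.1 times), and each rests on few UMIs in its lowest cluster (3, 8 and 22). Cluster 10 was the highest for 16 members and cluster 4 for 13; Cdca7, a chromatin factor regulated by E2F and Myc, was highest in cluster 12 (99.2 CPM), a cluster with 7.17% of cells called S. The lowest E13.5 clusters were 0 for 14 members, 12 for 10 and 14 for 6. At E11.5 the lowest mesenchymal cluster was cluster 8 for 11 members and cluster 5 for 9.

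Over all clusters, with the erythroid ones included, the lowest was cluster 11 for 30 of 30 members at E11.5 and cluster 13 for 28 of 30 at E13.5. There the widest E13.5 range with UMIs at both ends was that of Atad2 (ratio 212, 58.4 to 1760, with 2 UMIs in cluster 13), Usp1 (ratio 172, 67.0 to 635, with 4 UMIs in cluster 13) and Cdc6 (ratio 131, 23.2 to 5207, with 1 UMI in cluster 13), and the narrowest that of Uhrf1 (36.0), Mcm4 (39.6), Chaf1b (40.6). At E11.5 the widest were Pcna (18), Rad51ap1 (16.2), Dtl (16) and the narrowest Rfc2 (6.39), Mcm2 (6.98), Tyms (7.03). Each member was also set against the sum of the other 29 over the clusters of its stage. The Pearson correlation ran from 0.855 (Ccne2) to 0.993 (Tipin) at E11.5 and from 0.735 (Rad51ap1) to 0.992 (Rrm1) at E13.5, over 17 and 22 clusters that share libraries. By rank the members were less alike at E11.5, where Spearman's rho was −0.04 for Ung, 0.216 for Cdca7, 0.252 for Mcm6, 0.277 for Mcm2 and 0.400 for Mcm4 and reached 0.922 (Atad2). At E13.5 rho ran from 0.508 (Cdca7) to 0.988 (Rrm1). The erythroid cluster 11, lowest for all 30 members at E11.5, is in both measures.

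The genes outside the set whose log2(CPM + 1) over all 39 clusters was most like that of the summed members were Rpa2 (Pearson 0.978), Rfc5, Gins1, Lig1, Chaf1a, Mcm3, Smc2, Hirip3, Mcm7 and Cdca4 (0.964). Rpa2 is a subunit of the single-stranded DNA binding protein RPA, Rfc5 loads the clamp, Gins1 sits beside Gins2, Lig1 joins Okazaki fragments, and Mcm3 and Mcm7 are further helicase subunits.

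**Figure D3:**
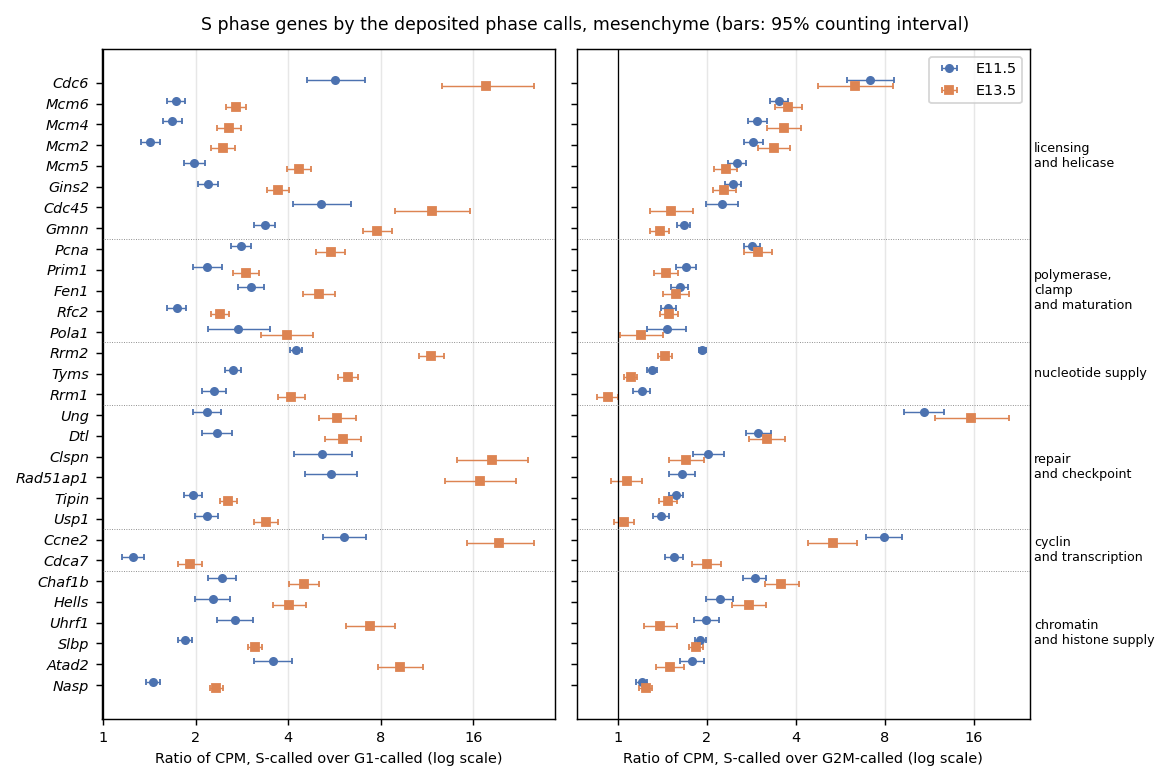
Ratio of CPM in S-called over G1-called and over G2M-called mesenchymal cells for each of the 30 genes at each stage, on a log axis with exact 95% intervals. All 30 genes lie above 1 in the S over G1 panel at both stages, while in the S over G2M panel Ung, Ccne2 and Cdc6 lie far to the right and Rrm1 reaches 0.922 at E13.5.

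In mesenchyme the summed level in G1-, S- and G2M-called cells was 2622, 6091 and 3225 CPM at E11.5 and 1227, 4692 and 2807 CPM at E13.5. A gene was counted as higher or lower where its CPM ratio was at least 1.5-fold, its interval excluded 1 and it had at least 20 UMIs over both groups, a rule of size and not a test. By that rule 27 of 30 members were higher in S than in G1 at E11.5, against 4.85% of all genes measured, and 30 of 30 at E13.5, against 7.89%. In S against G2M, 24 of 30 were higher at E11.5 (4.88% of all genes) and 18 of 30 at E13.5 (9.22%). The phase calls may rest on these genes, and nothing is read from these counts. Median UMIs per cell were higher in S- than in G1-called cells and highest in G2M-called cells (4702.5, 6048 and 7305 at E11.5 in G1, S and G2M, and 7376, 9675 and 10735 at E13.5); the part of depth in the ratios was not tested.

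The S over G1 ratio at E11.5 was largest for Ccne2 (6.06), Cdc6 (5.67) and Rad51ap1 (5.50) and smallest for Cdca7 (1.25), Mcm2 (1.42) and Nasp (1.45), the 3 that missed the rule. At E13.5 it was largest for Ccne2 (19.5), Clspn (18.4) and Cdc6 (17.6) and smallest for Cdca7 (1.91), Nasp (2.33) and Rfc2 (2.39). Clspn encodes claspin, a fork protein that activates the checkpoint kinase Chk1, and Rfc2 is a clamp loader subunit. The ratio was larger at E13.5 in 30 of 30 members, with medians of 2.32 and 4.42, and the order of the members was alike (Pearson 0.963, Spearman 0.934 over 30 genes of the same libraries). As log2 values the medians were 1.21 and 2.14, against −0.03 and −0.02 over all genes. For 20 genes of G2 and mitosis they were 0.71 and 2.16, so the larger ratio at E13.5 was not particular to the members.

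Against G2M the members fell along a scale. Ung had 121 CPM in S-called and 11.2 CPM in G2M-called cells at E11.5, a ratio of 10.8 (9.31 to 12.7), and 95.2 and 6.10 CPM at E13.5, a ratio of 15.6 (11.8 to 21). Ccne2 followed with 7.92 and 5.32 and Cdc6 with 7.12 and 6.33. Cyclin E2 and Cdc6 both act around the start of S phase. At the other end Rrm1, the large subunit of ribonucleotide reductase, had ratios of 1.20 and 0.922, Nasp 1.20 and 1.24, Tyms 1.30 and 1.10, and Usp1, which deubiquitinates Pcna and Fancd2, 1.40 and 1.05. Rad51ap1 had 13.1, 72.2 and 44.0 CPM in G1, S and G2M at E11.5 and 3.85, 64.6 and 60.4 CPM at E13.5, so that its G2M over G1 ratio was 3.35 and 15.7. For Ung that ratio was 0.201 and 0.369 and for Mcm6 0.491 and 0.719.

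Grouped by role, the 8 licensing and helicase genes summed to 706, 1463 and 580 CPM in G1, S and G2M at E11.5, and at E13.5 to 300.0, 1102 and 460 CPM. The 3 nucleotide supply genes had sums of 469, 1601 and 985 CPM at the earlier stage and 121, 862 and 725 CPM at the later one. The G2M over G1 ratio of the licensing sums was 0.821 in the E11.5 library and 1.53 in the E13.5 library, with members on both sides of 1. At E11.5 Gmnn (2.01) and Cdc45 (2.28) lay above 1 and the other members of the group below it, from 0.491 (Mcm6) to 0.892 (Gins2). At E13.5 Mcm2 (0.726), Mcm4 (0.705) and Mcm6 (0.719) lay below 1 and the others above it, from 1.62 (Gins2) to 7.74 (Cdc45). The ratio of the nucleotide supply sums was 2.10 and 5.97. The 5 polymerase, clamp and maturation genes had S over G2M ratios of 1.85 and 1.66, the 6 repair and checkpoint genes 1.93 and 1.63, and the 6 chromatin and histone supply genes 1.65 and 1.63.

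Between the stages the mesenchyme, 5899 cells at E11.5 and 3905 at E13.5, had a lower level of nearly all members at E13.5. The summed level was 3939 and 2508 CPM, 13 of 30 members were lower by the rule of size, against 12.2% of all genes measured, and none was higher, against 27%. The median log2 ratio of the members was −0.50 and that of all genes 0.14, and the CPM ratio was under 1 for 29 of 30, the exception being Pola1, which a median-of-ratios scaling also put under 1. In bulk sums of this kind fewer cells in S phase and less RNA per cell cannot be told apart, and cells called S were 30.4% of the mesenchyme at E11.5 and 22.6% at E13.5.

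**Figure D4:**
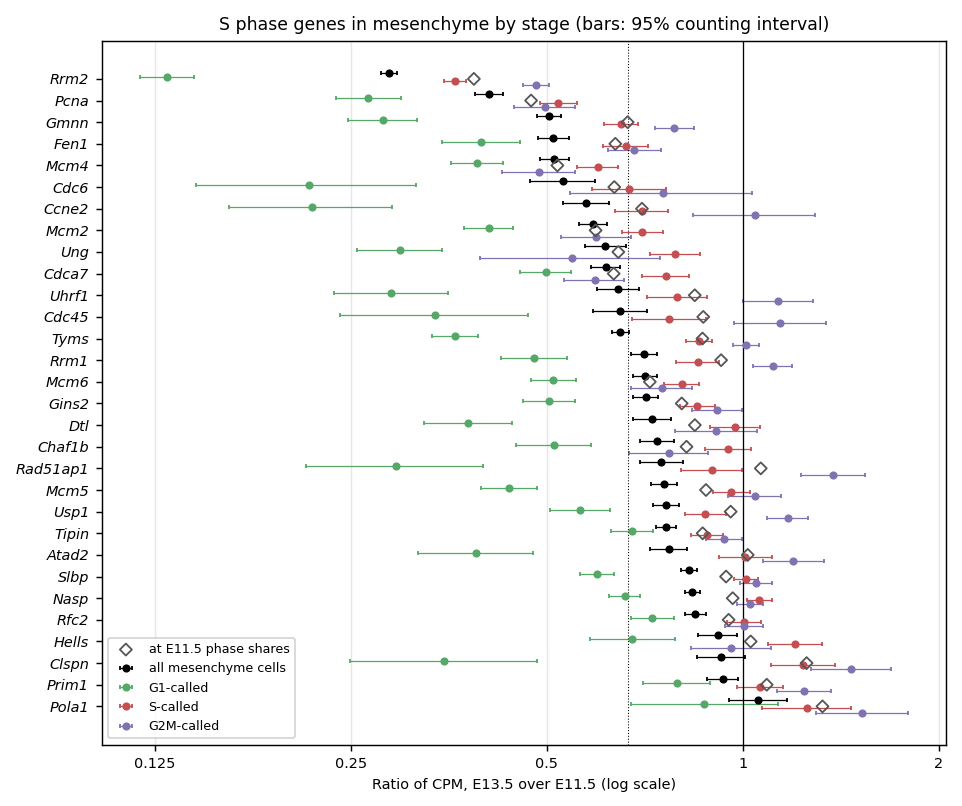
E13.5 over E11.5 ratio of CPM for each of the 30 genes in all, G1-called, S-called and G2M-called mesenchymal cells, on a log axis with exact 95% intervals; open diamonds weight the E13.5 phases by their E11.5 shares, and the dotted line marks 1.5-fold lower. Rrm2 and Pcna lie lowest in all mesenchyme at 0.286 and 0.407, and the G1-called ratios lie below those of S-called cells.

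Rrm2 had the largest difference of the 30 members. It stood at 610 CPM (22752 UMIs) at E11.5 and 175 CPM (5988 UMIs) at E13.5, 3.49-fold lower (3.40 to 3.60), and every one of the 11 mesenchymal clusters of E11.5 (291 to 808 CPM) exceeded every mesenchymal cluster of E13.5 other than 4 and 10. Its partner Rrm1 stood at 121 and 85.5 CPM (ratio 0.704, 0.672 to 0.738), under the rule of size, and Tyms at 312 and 202 CPM (0.648). Of the replication fork genes, Pcna fell from 154 to 62.5 CPM (0.407, 0.387 to 0.428) and Fen1, the flap nuclease of Okazaki fragment maturation, from 111 to 56.7 CPM (0.511). The fork genes Rfc2 (168 and 142 CPM, ratio 0.845), Prim1, the primase subunit (77.1 and 71.8 CPM, 0.931), and Pola1, the catalytic subunit of polymerase alpha (20.7 and 21.8 CPM, 1.05 with an interval of 0.952 to 1.17), did not pass the rule.

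Of the 8 licensing and helicase genes 5 fell, against 12.2% of all genes measured. Gmnn went from 185 to 93.1 CPM (0.504), Mcm4 from 123 to 63.0 CPM (0.513) and Cdc6 from 24.8 to 13.1 CPM (0.529). Mcm2 went from 117 to 68.8 CPM (0.588) and Cdc45 from 30.3 to 19.6 CPM (0.648). The other members of the group had ratios of 0.707 (Mcm6), 0.709 (Gins2) and 0.756 (Mcm5). Helicase subunits that act as 1 complex thus stood at ratios from 0.513 to 0.756. Ccne2 (46.0 to 26.4 CPM, 0.574) and Cdca7 (108 to 66.7 CPM, 0.616) both fell.

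In repair and checkpoint, 1 of 6 fell, against 12.2% of all genes measured, and this was Ung, from 55.1 to 33.9 CPM (0.615). The others had ratios from 0.724 (Dtl) through 0.749 (Rad51ap1), 0.761 (Usp1) and 0.762 (Tipin, a fork protection factor) to 0.926 (Clspn). In chromatin and histone supply 1 of 6 fell, Uhrf1, which brings the maintenance methyltransferase to hemimethylated DNA, from 51.6 to 33.2 CPM (0.642). Chaf1b, a subunit of the histone chaperone CAF-1 (0.737), Atad2 (0.769), Slbp (0.827), Nasp (0.836) and Hells, a chromatin remodeller of the SNF2 family (0.914), did not pass. Both counts of 1 of 6 lie near the share over all genes, and nothing is read from them.

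The stages were then compared within each phase call. In G1-called mesenchyme (1870 and 2225 cells) 25 of 30 members were lower at E13.5, against 13.7% of all genes, with a median log2 ratio of −1.32. The exceptions were Tipin (0.675), Hells (0.676), Rfc2 (0.725), Prim1 (0.791) and Pola1 (0.872). Of 20 genes of G2 and mitosis, 20 were also lower in G1-called cells (summed level 1483.5 and 477.8 CPM). The lower level there was thus not particular to the members. In S-called cells 8 of these 20 genes were lower and none higher, and in G2M-called cells 7 were higher and none lower. Whether a phase call picks like cells in both libraries was not tested. In S-called mesenchyme (1794 and 884 cells) 5 of 30 were lower, against 10.7%: Rrm2 (1026 and 370 CPM, ratio 0.361), Pcna (280 and 146 CPM, 0.520), Mcm4 (0.598), Gmnn (0.651) and Fen1 (0.660). The median log2 ratio there was −0.23, and the count was 8 with a median-of-ratios scaling, 3 with haemoglobin, mitochondrial and ribosomal protein genes left out of the totals, and 1 (Rrm2) at 2-fold. In G2M-called mesenchyme 6 members were lower, against 11.9%, among them Rrm2 (0.481), Mcm4 (0.486) and Pcna (0.496), and 1 was higher, against 20.9%, Pola1 (1.52, 1.29 to 1.79). Under the other scaling 5 members in S-called cells (Prim1, Rfc2, Nasp, Slbp and Atad2) and 6 in G2M-called cells (Mcm5, Tyms, Rfc2, Nasp, Slbp and Ccne2) changed the side of 1 on which their ratio lay.

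With each E13.5 phase weighted by its E11.5 share of UMIs, 9 of 30 members stayed at least 1.5-fold lower, and the median log2 ratio moved from −0.50 to −0.23. No value over all genes is given for this weighting, so the count is a description. The weighting takes a phase call to mean the same in both libraries, which was not tested. Rrm2 moved from 0.286 to 0.386 and Pcna from 0.407 to 0.473. Pola1 moved from 1.05 to 1.32 and Clspn from 0.926 to 1.25, so that these ratios lay further above 1 or passed it. A cell was called G1 where both deposited scores were below 0 and otherwise took the larger, in 100% of cells of both libraries, and the median S score of S-called mesenchyme was 0.156 in the E11.5 library and 0.208 in the E13.5 library.

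The S-called cells of E13.5 were also of more than 1 kind. The 376 in clusters 4 and 10 summed to 6307 CPM, 1.04 times the E11.5 S-called level (1.02 to 1.05), and the 508 in the other mesenchymal clusters to 3321 CPM, 0.545 times that level (0.536 to 0.555). Rrm2 was below the E11.5 level in both, at 0.611 and 0.149, and Pcna likewise at 0.719 and 0.351, while Clspn was at 2.02 in clusters 4 and 10. The median S score was 0.418 in clusters 4 and 10 and 0.0868 in the others. The split follows clusters made from the same cells, so it is a description. G2M-called cells of clusters 4 and 10 stood at 1.18 times the E11.5 level and those of the other clusters at 0.570 times.

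Within a phase call the mesenchymal clusters also differed. Over clusters with at least 50 such cells at E13.5, the highest exceeded the lowest by 1.44 times in G1-called cells (8 clusters), by 2.21 times in S-called cells (7 clusters) and by 2.52 times in G2M-called cells (6 clusters). At E11.5 the values were 1.21 (6 clusters), 1.42 (10 clusters) and 1.27 (11 clusters). The sets of clusters differ between phases: at E13.5 clusters 4 and 10 hold no G1-called cell, and clusters 0, 12 and 14 have too few S- and G2M-called cells, so these ratios are not compared with each other or with the range over all cells.

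Member transcripts were counted per cell after each cell was thinned to 2000 UMIs, with 79 shallower mesenchymal cells of E13.5 left out and none of E11.5. The share of mesenchymal cells with at least 2 member UMIs came to 97.1% (96.6 to 97.5) at E11.5 and to 77.3% (75.9 to 78.6) at E13.5, and the median was 7 and 3 member UMIs per cell. The share with no member UMI was 0.475% and 7.06%, and the share with 15 or more was 8.44% and 4.29%. In G1-called cells the share with at least 2 was 93.5% and 65.4%, in S-called cells 100% and 98.6%, and in G2M-called cells 97.8% and 86.3%. In muscle cluster 19 of E13.5, whose contractile cells should lack these transcripts and which has no S-called cell, the share was 11.2% (median depth 23711 UMIs), and in erythroid cluster 13 it was 3.40% (median depth 18517 UMIs). Without thinning it was 95% in cluster 19 and 37.7% in cluster 13, and it ran from 96.9% to 100% in the E11.5 clusters other than erythroid cluster 11 (96.4%).

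**Figure D5:**
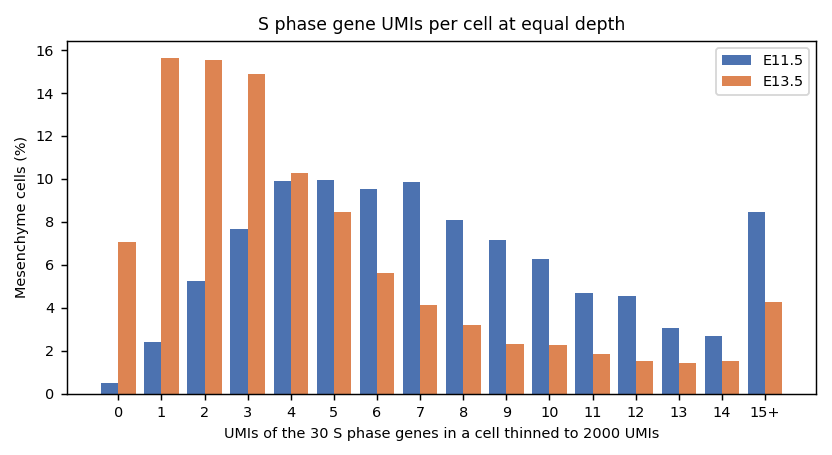
Share of mesenchymal cells (percent) with each number of member UMIs after thinning every cell to 2000 UMIs, for E11.5 and E13.5, the last bin holding 15 or more. The E11.5 distribution centres on a median of 7 UMIs and the E13.5 distribution on 3.

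Other cell classes of the same libraries were compared in the same way. In epithelium (405 and 838 cells) 6 of 30 members were lower at E13.5, against 14.2% of all genes, with a median log2 ratio of −0.30 (all genes −0.10) and summed levels of 3123 and 2409 CPM. In muscle (151 cells of cluster 14 and 752 cells of clusters 1, 15 and 19) 6 of 30 were lower, against 13.7%, with a median of −0.44 (all genes −0.10) and 3966 and 2667 CPM. Of the E13.5 muscle clusters, 1 stood at 3574 CPM, 15 at 871 CPM and 19 at 292 CPM. The E13.5 epithelium held clusters 9 (2594 CPM), 7 (2424 CPM) and 16 (1429 CPM). The mix of clusters and the level within them cannot be told apart in these class ratios. In endothelium (162 and 137 cells) 11 of 30 were lower, against 13.6%, with a median of −0.55 (all genes −0.12) and 2991 and 1923 CPM. None was higher in these 3 classes. The share of all genes higher there is not given here, so nothing is read from that count.

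Rrm2, Pcna, Mcm4 and Ccne2 were lower in mesenchyme, epithelium, muscle and endothelium alike, and 14 of 30 members were lower in none of the 4. The share of all genes lower in all 4 classes or in none is not given here, so nothing is read from this overlap. Rrm2 stood at 375 and 148 CPM in epithelium (0.395), at 730 and 307 CPM in muscle (0.420) and at 378 and 112 CPM in endothelium (0.296). Pcna stood at ratios of 0.462, 0.448 and 0.520 in the same order, Mcm4 at 0.596, 0.513 and 0.471, and Ccne2 at 0.412, 0.433 and 0.542. The classes share both libraries and are not independent of each other. In erythroid cells (456 and 207) 30 of 30 members were lower, but so were 90% of all genes measured, and the medians were −3.44 and −2.52.

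Other lists of the cell cycle were read in mesenchyme as counts beside the members. The shares over all genes are 12.2% lower and 27% higher, with an all-gene median of 0.14 on the log2 scale. Of 40 further replication genes, 19 were lower at E13.5 and none higher, with a median of −0.56. The origin recognition gene Orc1 (0.392), the nuclease Dna2 (0.363), the clamp loader Rfc4 (0.525) and Gins1 (0.526) were among those that fell. Of 11 further genes of a common S phase scoring list, 6 were lower, with Exo1 at 0.417 and Cenpu at 0.449. Of 20 genes of G2 and mitosis, 6 were lower and none higher, with a median of −0.43.

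Of 12 G1 cyclins, kinases and inhibitors, 6 were higher and none lower (27% and 12.2% of all genes). The inhibitor Cdkn1c rose from 1155 to 4333 CPM (3.75, 3.71 to 3.79), Cdkn2c from 5.15 to 38.6 CPM (7.50) and Cdkn1a from 5.76 to 14.5 CPM (2.51), with Cdkn1b (1.97), Ccnd2 (1.88) and Ccnd3 (1.53) also higher. Below 1 and under the rule were Ccnd1 (0.887), Cdk6 (0.838), Ccne1 (0.708) and Cdk4 (0.706). Of 13 E2F and pocket protein genes, Rbl2 was higher (2.12 and 4.64 CPM, 2.19) and E2f5 lower (47.2 and 27.4 CPM, 0.581). Of 10 replication-dependent histone genes, 3 were higher and 2 lower, against 27% and 12.2% of all genes. Of the 3 higher, Hist1h1e was above its G1-called level in S-called cells (3.56 at E11.5 and 5.26 at E13.5). Hist1h1c (0.751 and 0.652) and Hist1h2bc (0.341 and 0.158) were below it.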

How the data were processed

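Per the labels' protocols, tissue was dissociated and 9600 cells per stage were loaded on a 10x Chromium instrument. The submitters' processing notes name Cell Ranger 2.0.0, Seurat 2.3.4 and build mm10; no source used here gives the steps behind each file. The deposited tables hold UMI counts per gene and cell, and the authors' metadata tables hold clusters, phase calls, S and G2M scores (a deposited score per cell) and the mitochondrial fraction of each cell (a deposited fraction). No source used here says how doublets were treated; no doublet caller was run, and leaving out the 5% of cells with the most UMIs per cluster was added as an alternative after the data were seen, as was leaving out mesenchymal clusters of doubtful name or depth.

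UMIs were summed per group of cells and divided by the group's total (CPM). Ratios carry exact conditional binomial 95% intervals and shares exact Clopper-Pearson 95% intervals, both for counting error only. A gene was counted as higher or lower at 1.5-fold or more, an interval that excludes 1 and at least 20 UMIs. The counting was tested on simulated pooled counts with no variation between cells or libraries. That check does not bear on differences between single libraries. Cells are not replicates, so no p-value is given. Shares used cells thinned to 2000 UMIs, which left out 421 cells of E13.5 and none of E11.5. Total UMIs were 49913485 and 67838169, with at least 2253 and 500 UMIs per cell, and at most 7.90% and 20.0% mitochondrial UMIs. Alternatives covered scaling, genes in the total, cell filter, depth, UMI minimum, fold, cell weighting and cells without Xist UMIs.

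All members are named at least once, 10 of them with values over clusters, together with the 3 largest and smallest ratios by stage, phase and cluster and the 10 most similar other genes. The members and lists were chosen with earlier results of these data known. Levels were not compared between genes, since counts were not scaled by length. Figures were drawn with matplotlib 3.10.9 and values computed with scipy 1.17.1, pandas 2.3.3 and numpy 2.4.6 under Python 3.11.15.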

Additional observations from a re-analysis of the deposited data

How the results depend on the processing

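No paired analysis was possible because each stage is 1 library. Of the values recomputed under an alternative, 72 stayed within the limits set for a change, 42 moved and none reversed; the causes were not tested. The 13 members lower in mesenchyme became 17 with size factors, 10 without haemoglobin, mitochondrial and ribosomal protein genes in the total and 18 thinned. They became 2 at 2-fold, and only that count was past the limits set for a change. The 5 lower in S-called mesenchyme became 8 with size factors, 3 without haemoglobin, mitochondrial and ribosomal protein genes in the total and 1 at 2-fold. The 24 higher in S than G2M at E11.5 became 14 at 2-fold. With size factors, without those genes in the total, as per-cell means and thinned, in that order, the median log2 ratio of −0.50 in mesenchyme was −0.64, −0.43, −0.63 and −0.62, and −0.52 without clusters 5, 8 and 10 of E11.5 and 5 and 21 of E13.5. That of −0.23 in S-called mesenchyme was −0.33, −0.16, −0.27 and −0.25, and −0.25 in cells with no Xist UMI. In the same order the median was −0.20, −0.18, −0.37 and −0.36 in epithelium (−0.30), −0.32, −0.34, −0.52 and −0.49 in muscle (−0.44), and −0.96, −1.96, −3.10 and −2.81 in erythroid cells (−3.44). In endothelium (−0.55) it was −0.43 with size factors, −0.41 without those genes, −0.78 thinned and −0.64 without the 5% deepest cells. The cluster ratio of 8.69 at E11.5 was 2.55 without those genes and 10.6 thinned, and that of 58.6 at E13.5 was 7.51, 43.0 thinned and 51.7 as per-cell means. The thinned share of 97.1% at E11.5 was 99.5% at 1 or more UMIs, 91.8% at 3 or more and 99.9% at 4000 UMIs per cell, and that of 77.3% at E13.5 was 92.9%, 61.7% and 95%. The medians recomputed (whole and S-called mesenchyme and the other 4 classes) kept their sign; those of G1- and G2M-called mesenchyme were not recomputed. Depth limits the members with few UMIs, such as Cdc6 with 926 and 450 mesenchymal UMIs.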
